A study of Mus musculus with 6 samples.

Results

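Genes of RNA splicing and RNA binding were followed in primary CD8+ T cells from the spleen of wildtype mice, cultured with daunorubicin (DNR) or with its solvent dimethyl sulfoxide (DMSO) for 2 h. DNR is an anthracycline that inserts between DNA bases and poisons topoisomerase II. The groups held 3 DMSO and 3 DNR samples, labelled as biological replicates without naming the animals, so the p-values measure only the spread between these samples, which may be technical. The sources used here do not give the age and strain of the mice, the dose of DNR or the activation state of the cells. The members are every gene of the deposited table whose symbol begins with any of 27 stems such as Hnrnp, Srsf, Rbm, Ddx or Mbnl. This choice was made with earlier results of these data known. The members came to 39 transcripts of 31 genes among the 1037 transcripts and 847 named genes of the table.

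Newly made transcripts are cut and rejoined by the spliceosome, a machine of small nuclear ribonucleoproteins that is guided to exons by SR proteins and often held away from them by hnRNP proteins. Muscleblind, CELF and many RBM proteins choose between alternative exons, RNA helicases rearrange the machine, and Argonaute, CCR4-NOT and DDX6 later repress or degrade the message. In T cells this network is known to set the isoforms of receptors and signalling proteins that change with activation. Many splicing-factor genes also limit their own output by including an exon with a stop codon in frame, a so-called poison exon that sends the transcript to nonsense-mediated decay.

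The table holds log2(FPKM + 1), where FPKM are fragments per kilobase of transcript, scaled to the mapped total of each library. Its FPKM summed to 13501 to 13669 in the DMSO samples and 14023 to 14395 in the DNR samples, and the depth in reads is unknown. The table's name marks it as input to a heatmap of the 2 groups, and nearly every tested transcript in it differs between them. The number of members that pass a test therefore says little. The same limit holds for each p-value below. If transcripts were listed because the groups differed, which the sources do not state, a small p-value repeats that choice and is no separate evidence. None of 8 fixed CD8 T cell markers had a matched transcript among the listed ones, so the cell type could not be checked here. Of 11 fixed monocyte, macrophage and granulocyte markers 3 were listed (Csf1r, Cd300lf and Csf3r), and their summed level ranged from 60.7 to 66.7 FPKM with DMSO and from 76.2 to 85.5 FPKM with DNR. Csf1r and Cd300lf were tested and both rose, by 0.25 and 1.11 on the log2(FPKM + 1) scale (limma, adjusted p = 0.0057 and 0.00019). The dendritic cell list had Itgax alone, with 1 transcript seen only in DMSO and another only in DNR and a sum of 0.96 to 1.23 FPKM under DMSO and 1.14 to 1.51 FPKM under DNR, and the B cell list had Spib and Ebf1, with a sum of 0 to 2.27 FPKM under DMSO and 1.88 to 5.97 FPKM under DNR, in transcripts too low for the test. No marker of natural killer cells, of CD4 T cells or of the erythroid and platelet lineages was listed. The part of such other cells in the results below was not tested. In bulk RNA, fewer cells of a type and less RNA per cell cannot be told apart.

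For 4 of the member genes, the listed transcript was set beside another model of its gene, and for 3 of them the sequences below show where the models part. They come from GENCODE M21 (GRCm38), which pairs 13 of the 17 curated accessions among the members with a transcript. NM_001362188 of Tra2a, an SR-like splicing activator, is classed there as a target of nonsense-mediated decay. It has 9 exons and 177 coding bases, against 8 exons and 846 coding bases in the protein-coding model ENSMUST00000031841. Its extra exon spans 306 bases at chr6:49252803-49253108 on the minus strand. Its stretch from the first base to the stop codon of the reading frame, chr6:49252965-49253108, is printed with that stop codon in capitals.
Tra2a NM_001362188: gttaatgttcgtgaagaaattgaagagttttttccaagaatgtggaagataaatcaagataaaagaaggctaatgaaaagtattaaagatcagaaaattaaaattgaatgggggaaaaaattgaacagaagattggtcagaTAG
NM_001139511 of Raly, which encodes an hnRNP C-like protein, lacks a coding exon of 48 bases that ENSMUST00000116389 includes (chr2:154859911-154859958, plus strand), and its coding length is 888 bases instead of 936. The lines below give that exon in capitals with 15 bases on each side, and the joined sequence of the listed transcript.
Raly with the exon: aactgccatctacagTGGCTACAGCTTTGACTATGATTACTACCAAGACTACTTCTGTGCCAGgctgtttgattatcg
Raly NM_001139511: aactgccatctacaggctgtttgattatcg
NM_001310515 of Mbnl3, a Muscleblind protein that binds RNA through zinc fingers, has no counterpart of the exon that opens the reading frame in ENSMUST00000114876. That exon's coding part spans 177 bases (chrX:51164418-51164594, minus strand), printed with the start codon in capitals. The listed transcript keeps 738 coding bases of the 1026 in the longer model.
Mbnl3 ENSMUST00000114876: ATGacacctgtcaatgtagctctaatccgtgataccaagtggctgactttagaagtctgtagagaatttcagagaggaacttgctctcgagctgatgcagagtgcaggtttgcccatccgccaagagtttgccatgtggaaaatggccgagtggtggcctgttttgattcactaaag
Rbm39 differs at its start. NM_001291115 begins with an exon of 147 bases (chr2:156179434-156179580, minus strand) in place of the exon of 281 bases that opens ENSMUST00000029149, and both carry 1572 coding bases.

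**Figure D1:**
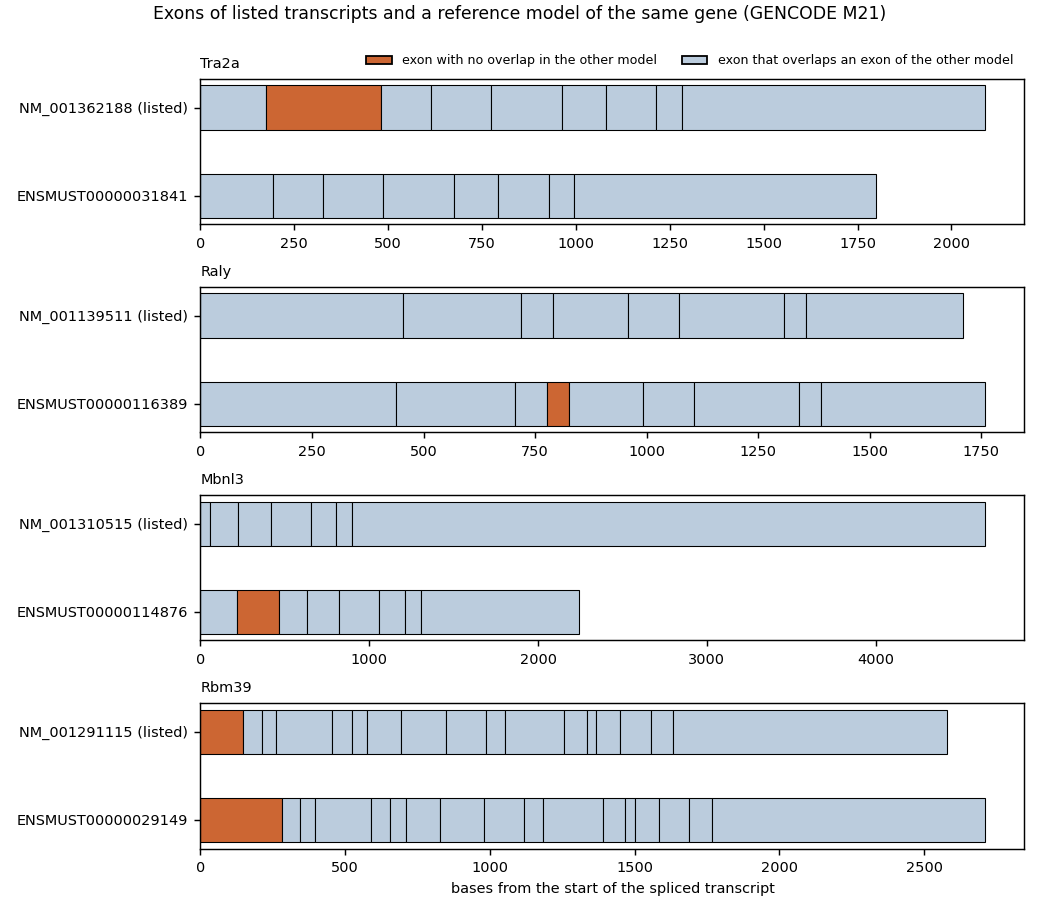
Exon structure of the listed transcripts of Tra2a, Raly, Mbnl3 and Rbm39 (upper bar of each panel) and of another GENCODE M21 model of the same gene (lower bar), drawn to scale as bases from the start of the spliced transcript. Orange boxes are exons with no overlap in the other model: the 306-base exon of Tra2a, the 48-base exon absent from the listed Raly, the exon absent from the listed Mbnl3 and the different first exons of Rbm39.

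Low transcripts were left out of the test (under 1 FPKM in 4 or more of the 6 samples), and the test covered 19 transcripts of 16 member genes and 388 transcripts in all. The members split into 6 that were higher and 13 that were lower in DNR by limma with Benjamini-Hochberg adjustment at 0.05. Of all tested transcripts 99.7% were called, 43.0% as higher and 56.7% as lower, so that all 19 members passing is the background rate. The groups did not overlap for any of the 19, and the same was true of 99.7% of all tested transcripts. Mbnl3 NM_001310515, Ythdc1 and Mbnl1 XM_030252701 passed the filter only through the group where they were high. For them the filter itself favoured a separation of the groups, which is therefore no support for a change. The median change of the members was -0.23 and that of all tested transcripts -0.22 on the log2(FPKM + 1) scale. In size regardless of sign the medians were 0.72 and 0.48 by transcript, where a gene with several transcripts counts more than once. By sums of FPKM per gene they were 0.39 for the members and 0.42 for all, at median DMSO levels of 37.7 and 11.2 FPKM. The size of a change on this scale varies with level, so these medians cannot settle whether the members changed more. Larger changes were thus not shown to be a trait of the members. The balance of directions depended on how the samples were centred. The median over tested transcripts detected in every sample differed by -0.19 (log2, DNR minus DMSO), and after centring the samples on a common median 6 members were higher and 7 lower. The share of higher calls among called members then went from 31.6% to 46.2%, and among all called transcripts from 43.2% to 61.1%. The median was taken over these same listed transcripts, most of them called lower, so it also carries their imbalance. Centring therefore cannot tell scaling from change. A call kept or lost after centring, here and below, does not decide between them.

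**Figure D2:**
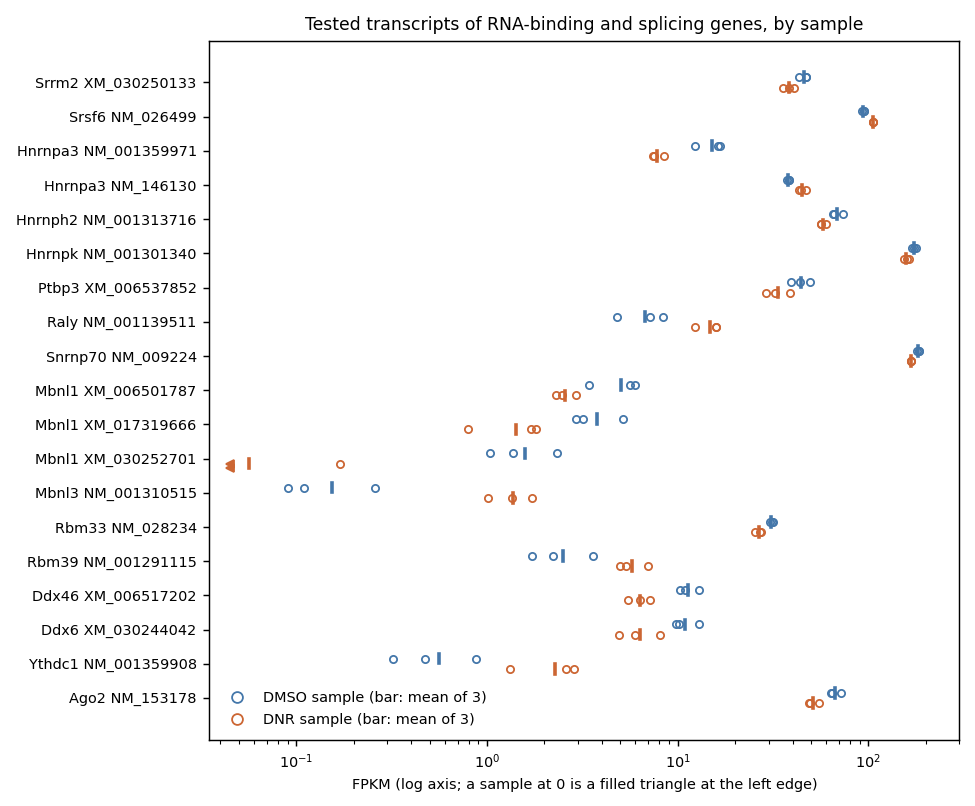
FPKM of the 19 tested member transcripts in each sample on a log axis, grouped by role from SR proteins at the top to Argonaute at the bottom; circles are samples, vertical bars are means of 3, and filled triangles at the left edge are samples at 0. The DMSO and DNR samples do not overlap in any line, with the widest separation for the low transcripts of Mbnl1, Mbnl3 and Ythdc1. Of these, Mbnl1 XM_030252701, Mbnl3 and Ythdc1 passed the filter only through the group where they were high, which favours such a separation.

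Of the SR proteins and their relatives, which bind exons and recruit the spliceosome, Srsf6 rose slightly and Srrm2 fell. Srsf6 NM_026499, the only RefSeq transcript of its gene (chromosome 2, 162931508 to 162937121), stood at 94.44, 92.22 and 94.42 FPKM in DMSO, against 105.06, 105.41 and 105.14 FPKM in DNR. The DNR samples were nearly identical to each other, and all lay above the DMSO samples. The change was 0.17 ± 0.03 (SE) on the log2(FPKM + 1) scale (limma, adjusted p = 0.0020), which did not pass with quantile normalization (0.06; limma, adjusted p = 0.086). Srrm2, a large scaffold protein of nuclear speckles (chromosome 17, 23790527 to 23824741), had 1 listed transcript, a predicted model, of 22 in RefSeq. XM_030250133 stood at 42.99, 47.10 and 47.11 FPKM in DMSO, against 40.63, 38.26 and 35.52 FPKM in DNR. The groups lay close but apart, and the change was -0.26 ± 0.06 (SE; limma, adjusted p = 0.0062). That call was lost after centring on a common median (limma, adjusted p = 0.43) and with quantile normalization (limma, adjusted p = 0.085). The Tra2a transcript with the extra exon was listed at 0 in every DMSO sample and at 1.98, 3.67 and 0.88 FPKM in DNR. It reached 1 FPKM in too few samples for the test. With no filter on low values it passed (limma, adjusted p = 0.014). That says little, since the share of the whole table that passed in that setting was not counted. This transcript is the only one listed of the 14 that RefSeq has for Tra2a, so whether the protein-coding forms moved cannot be read here. Srsf11 was above 0 in a single sample, at 1.85 FPKM in DMSO.

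Among the hnRNP proteins and the related repressors, 2 transcripts rose and 4 fell. The clearest pattern was in Hnrnpa3, an RNA-binding protein of the hnRNP A/B family (chromosome 2, 75659105 to 75669407), where both listed transcripts of the 5 in RefSeq moved in opposite directions. NM_146130 stood at 38.50, 37.44 and 38.30 FPKM in DMSO, against 47.25, 44.44 and 43.30 FPKM in DNR, a change of 0.23 ± 0.04 (SE; limma, adjusted p = 0.0032). NM_001359971 stood at 16.64, 12.39 and 16.34 FPKM in DMSO, against 8.51, 7.48 and 7.38 FPKM in DNR, a change of -0.87 ± 0.13 (SE; limma, adjusted p = 0.0014). Their sum averaged 53.2 ± 2.93 FPKM under DMSO against 52.8 ± 2.65 FPKM under DNR (SD, n = 3), with sample sums of 55.14, 49.83 and 54.64 against 55.76, 51.92 and 50.68 FPKM, and the groups overlapped (change -0.01 ± 0.05, SE; limma on gene sums, adjusted p = 0.86). After centring on a common median the sum turned to a rise of 0.15 (limma, adjusted p = 0.044). The share of NM_001359971 in the sum went from 30.2%, 24.9% and 29.9% under DMSO to 15.3%, 14.4% and 14.6% under DNR. A share does not depend on scaling between samples, and here every DNR sample lay below every DMSO sample. That separation had to follow, since NM_146130 was higher and NM_001359971 lower in every DNR sample. It restates those values and is no further support. Estimates for transcripts of a gene share reads, so a share also carries the error of assigning them.

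Raly NM_001139511, the form without the 48-base exon (gene on chromosome 2, 154790920 to 154871010), had the largest rise among the hnRNP-related transcripts. It stood at 4.82, 8.38 and 7.12 FPKM in DMSO, against 15.90, 12.30 and 15.94 FPKM in DNR. The mean went up 2.17 times, with a change of 1.03 ± 0.19 (SE; limma, adjusted p = 0.0031). It is 1 of 10 RefSeq transcripts of Raly, and forms with the exon are not analysed here. The other hnRNP transcripts fell by less. Hnrnph2, whose protein binds runs of G (chromosome X, 134601179 to 134607060), stood at 64.87, 66.04 and 73.75 FPKM in DMSO, against 56.73, 56.52 and 60.25 FPKM in DNR (change -0.23 ± 0.06, SE; limma, adjusted p = 0.0062). Hnrnpk, whose protein binds runs of C through KH domains (chromosome 13, 58391132 to 58403343), stood at 172.43, 170.01 and 178.12 FPKM in DMSO, against 162.36, 152.84 and 159.72 FPKM in DNR, a change of -0.13 ± 0.03 (SE; limma, adjusted p = 0.0074) that turned to 0.06 after centring on a common median. Ptbp3, the polypyrimidine tract-binding protein of blood cells (chromosome 4, 59471868 to 59549378), stood at 49.59, 39.49 and 43.96 FPKM in DMSO, against 32.30, 29.16 and 38.64 FPKM in DNR, where the highest DNR sample came within 1 FPKM of the lowest DMSO sample (change -0.40 ± 0.12, SE; limma, adjusted p = 0.012). The falls of Hnrnph2 and Ptbp3 did not pass after centring on a common median (limma, adjusted p = 0.59 and 0.10).

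Snrnp70 was the sole listed gene of the spliceosome core and the most abundant member. It encodes the 70K protein of the U1 particle, which recognises the start of an intron (chromosome 7, 45376454 to 45395742). Its listed transcript NM_009224 stood at 179.43, 183.26 and 184.92 FPKM in DMSO, against 168.09, 166.68 and 168.18 FPKM in DNR. All DNR samples were lower by a small and even step, a change of -0.12 ± 0.03 (SE; limma, adjusted p = 0.0043), which turned to 0.07 after centring on a common median (limma, adjusted p = 0.20).

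**Figure D3:**
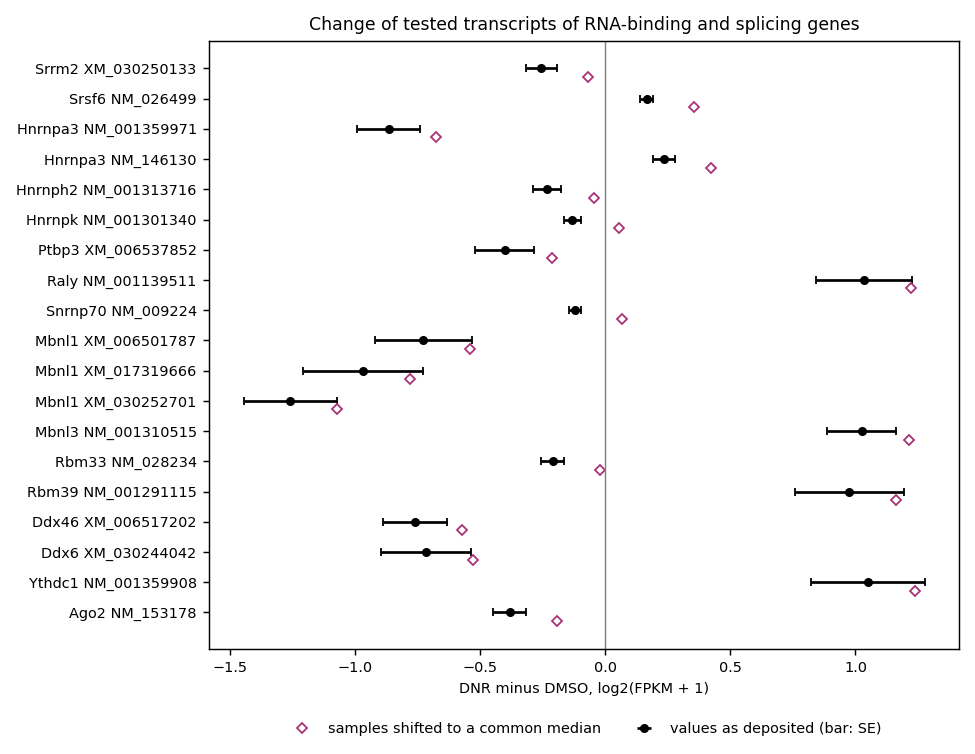
Change from DMSO to DNR of the 19 tested member transcripts on the log2(FPKM + 1) scale, with black points and SE bars for the values as deposited and open diamonds for samples centred on a common median. The shift moves every point up by 0.19, which takes Snrnp70 and Hnrnpk across 0 and leaves the falls of Mbnl1, Ddx46, Ddx6 and Hnrnpa3 NM_001359971 below it.

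The regulators of alternative splicing and mRNA stability had 16 listed transcripts of 11 genes, of which 6 were tested, 2 higher and 4 lower. All 3 listed transcripts of Mbnl1 fell (chromosome 3, 60472559 to 60629750). Mbnl1 encodes the Muscleblind protein whose sequestration by repeat RNA underlies myotonic dystrophy. XM_006501787 stood at 3.43, 5.99 and 5.62 FPKM in DMSO, against 2.94, 2.31 and 2.46 FPKM in DNR (change -0.73 ± 0.19, SE; limma, adjusted p = 0.0084). XM_017319666 stood at 3.18, 5.16 and 2.93 FPKM in DMSO, against 1.80, 0.79 and 1.69 FPKM in DNR (change -0.97 ± 0.24, SE; limma, adjusted p = 0.0066). XM_030252701 stood at 2.32, 1.04 and 1.37 FPKM in DMSO and was near 0 in DNR, at 0, 0 and 0.17 FPKM (change -1.26 ± 0.19, SE; limma, adjusted p = 0.0015). It passed the filter through its DMSO samples alone, so its test carries little weight. Unlike in Hnrnpa3, the sum of the listed transcripts moved too, which had to follow from all 3 being lower in every DNR sample. The sum is therefore no second result for the gene. It stood at 8.93, 12.19 and 9.92 FPKM in DMSO, against 4.74, 3.10 and 4.32 FPKM in DNR, a change of -1.17 ± 0.17 (SE; limma on gene sums, adjusted p = 0.0020) and of -1.01 after centring on a common median. These are 3 predicted models of the 49 transcripts RefSeq has for the gene. The share of XM_030252701 went from 26.0%, 8.53% and 13.8% of the sum in DMSO to 0%, 0% and 3.94% in DNR. That fall restates the values through which it passed the filter and is no further support. The shares of XM_017319666 overlapped between the groups.

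Its relative Mbnl3 went the other way in the transcript that was tested (chromosome X, 51113494 to 51205990). NM_001310515, the form that lacks the exon printed above, stood at 0.26, 0.11 and 0.09 FPKM in DMSO, against 1.72, 1.35 and 1.01 FPKM in DNR (change 1.03 ± 0.14, SE; limma, adjusted p = 0.00093). The DNR samples were all at or above 1 FPKM and the DMSO samples all at or below 0.26 FPKM. The transcript thus passed the filter through its DNR samples alone, and its test carries little weight. Predicted transcripts of Mbnl3 were each above 0 in a single sample: XM_006541435 at 1.42 FPKM in 1 DMSO sample, XM_006541442 at 1.36 FPKM in another and XM_006541437 at 0.97 FPKM in 1 DNR sample. With them, the gene sum averaged 1.08 ± 0.71 FPKM under DMSO against 1.68 ± 0.66 FPKM under DNR (SD, n = 3), and the groups overlapped (change 0.41 ± 0.32, SE; limma on gene sums, adjusted p = 0.27). The change of the sum was 0.08 without DMSO sample 1, 0.24 without DNR sample 2 and at most 0.60 with any 1 sample left out. With curated accessions alone the sum is NM_001310515 itself and passed (limma, adjusted p = 0.0026). The rise was thus seen in that transcript, with the limit set by the filter, and was not shown for the listed sum.

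**Figure D4:**
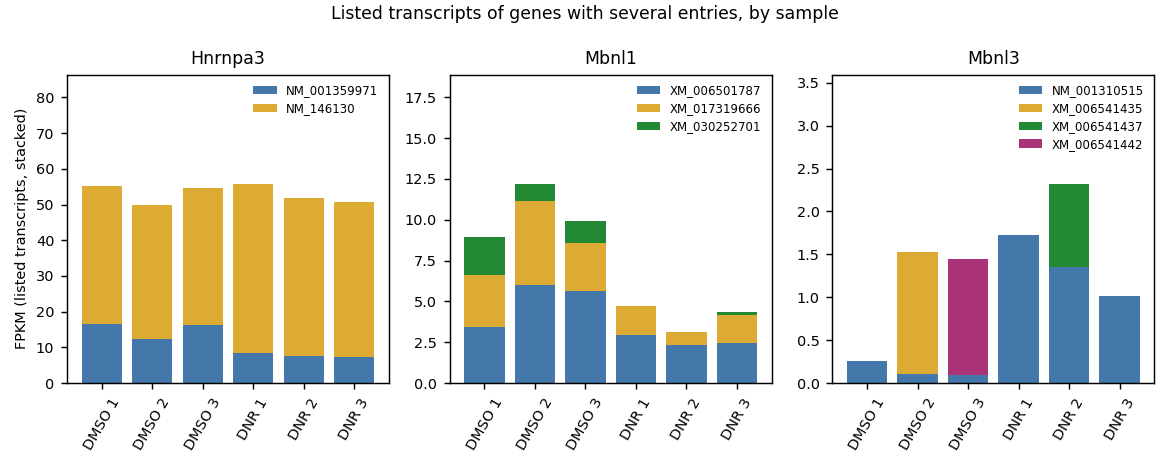
Stacked FPKM of the listed transcripts of Hnrnpa3, Mbnl1 and Mbnl3 in each sample, with 1 colour for each transcript and separate axes from 0 for each gene. The Hnrnpa3 bars keep their height while the NM_001359971 segment shrinks in DNR, all Mbnl1 segments shrink, and the Mbnl3 bars of DMSO samples 2 and 3 consist mostly of predicted transcripts seen in that sample alone.

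Rbm39 encodes a splicing factor related to U2AF that aryl sulfonamide drugs target for degradation (chromosome 2, 156147239 to 156180238). NM_001291115, the form with the other first exon, stood at 3.59, 2.21 and 1.73 FPKM in DMSO, against 7.0, 5.00 and 5.37 FPKM in DNR. The mean went up 2.31 times, a change of 0.98 ± 0.22 (SE; limma, adjusted p = 0.0053), in 1 of 43 RefSeq transcripts. Rbm33 (chromosome 5, 28316836 to 28419244) was more abundant and fell slightly, from 31.42, 30.35 and 31.11 FPKM in DMSO to 27.08, 25.46 and 27.35 FPKM in DNR (change -0.21 ± 0.05, SE; limma, adjusted p = 0.0048), a call lost after centring on a common median (limma, adjusted p = 0.70). Other genes of this role were below the filter. Rbm5 NM_001359525, of a regulator that changes the splicing of apoptosis genes, was listed at 0 in every DMSO sample and at 1.52, 1.10 and 0.69 FPKM in DNR. Celf1 XM_030247118 was at 1.25, 0.44 and 1.48 FPKM in DMSO but 0 in every DNR sample. Celf2 XM_011238953, of a gene known to direct alternative splicing in T cells, was at 0.83, 1.47 and 0.97 FPKM in DMSO, against 0.50, 0.35 and 0.34 FPKM in DNR. These 3 passed with no filter (limma, adjusted p = 0.011, 0.018 and 0.034). The share of the whole table that passed in that setting was not counted, so these passes say little. Rbm47 was at 0.71, 0.55 and 0.09 FPKM in DMSO but 0 in every DNR sample, and did not pass with no filter (limma, adjusted p = 0.086). Fubp1 was at 6.89 FPKM in 1 DMSO sample and at 0 or 0.01 FPKM in the other 5, Rbm4b was above 0 in 1 DMSO sample (1.34 FPKM) and Rbm26 in 1 DNR sample (0.69 FPKM).

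Both tested RNA helicases fell by similar amounts. Ddx46, the counterpart of yeast Prp5, helps the U2 particle engage the branch site (chromosome 13, 55634975 to 55681267). Its transcript XM_006517202 stood at 13.00, 10.26 and 10.90 FPKM in DMSO, against 7.13, 6.34 and 5.46 FPKM in DNR, a change of -0.76 ± 0.13 (SE; limma, adjusted p = 0.0022). Ddx6 acts in decapping and translational repression in P-bodies (chromosome 9, 44602983 to 44640731). Its transcript XM_030244042 stood at 12.88, 9.76 and 10.17 FPKM in DMSO, against 8.09, 4.93 and 5.97 FPKM in DNR, a change of -0.72 ± 0.18 (SE; limma, adjusted p = 0.0067). Both kept their call after centring on a common median, at -0.57 and -0.53 (limma, adjusted p = 0.0033 and 0.022). The ratios of DNR to DMSO means were 0.55 for Ddx46 and 0.58 for Ddx6. Ddx55 and Dhx57 were above 0 in a single sample each, Ddx55 at 2.33 FPKM (DMSO) and Dhx57 at 2.10 FPKM (DNR).

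Ythdc1, the nuclear reader of N6-methyladenosine marks (chromosome 5, 86803980 to 86836659), was the sole listed gene of the role that joins m6A readers and 3' end cleavage factors. NM_001359908, 1 of 14 RefSeq transcripts, stood at 0.47, 0.88 and 0.32 FPKM in DMSO, against 1.32, 2.87 and 2.61 FPKM in DNR, a change of 1.05 ± 0.23 (SE; limma, adjusted p = 0.0048). All of these levels are low, and the DNR mean was 4.07 times the DMSO mean. The transcript passed the filter through its DNR samples alone, so its test carries little weight.

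Of the genes for silencing, deadenylation and decay, Ago2 was the sole tested one. Ago2 encodes the Argonaute protein that cuts targets of small RNAs (chromosome 15, 73101625 to 73184947). NM_153178, its only RefSeq transcript, stood at 72.24, 63.92 and 64.63 FPKM in DMSO, against 54.97, 48.76 and 49.56 FPKM in DNR. The DNR mean was 0.76 of the DMSO mean, a change of -0.38 ± 0.06 (SE; limma, adjusted p = 0.0023), which kept its call after centring on a common median (-0.19; limma, adjusted p = 0.016). Cnot4 and Zc3h4 were above 0 in a single sample each, Cnot4 at 2.27 FPKM (DNR) and Zc3h4 at 3.24 FPKM (DMSO). Of the translation initiation factors, Eif4g3 was the sole listed gene, a scaffold of the cap-binding complex. Its 3 predicted transcripts stayed under 1 FPKM in every sample, and their sum was 0.19, 0.18 and 0.09 FPKM in DMSO and 0.58, 1.05 and 0.43 FPKM in DNR. One of them, XM_030253478, was seen in DMSO alone (0.13, 0.18 and 0.07 FPKM) and XM_030253470 in DNR alone (0.35, 0.08 and 0.12 FPKM).

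In all, 20 member transcripts were too low for the test, and 15 of the 31 genes had no tested transcript. Of these 20 transcripts, 10 were above 0 in a single sample, 6 of them in DMSO and 4 in DNR, at 0.69 to 3.24 FPKM. A further 3 were above 0 in all DMSO samples and 0 in DNR (Celf1, Rbm47 and Eif4g3 XM_030253478), and 3 showed the reverse (Tra2a, Rbm5 and Eif4g3 XM_030253470). Such single-sample transcripts made up 25.6% of the members and 31.4% of the table. Detection confined to either group was not particular to the members. Outside them, Chm NM_001370789 and Strada XM_006534297 averaged 3.13 and 4.15 FPKM in DMSO and 0 in DNR. Ly6e NM_001164037 and Fcna XM_011239016 averaged 0 in DMSO and 4.15 and 2.90 FPKM in DNR. The share of this pattern in the whole table was not counted, so its number among the members says little.

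By gene sums over listed transcripts, 4 member genes were higher, 10 were lower and 2 did not pass (Hnrnpa3 and Mbnl3), out of 16 tested. Of these, only Hnrnpa3, Mbnl1 and Mbnl3 had several listed transcripts. For the others the sum is the single listed transcript tested again, and it is no second result for the gene. The Mbnl1 sum is no second result either, since each of its listed transcripts was lower in every DNR sample. Of the 361 gene sums tested over the whole table, 90.9% were called, 39.3% as higher and 51.5% as lower, and 90.0% had groups that did not overlap, against 14 of the 16 members. The genes that were higher were Raly, Rbm39, Srsf6 and Ythdc1. Those that were lower were Ago2, Ddx46, Ddx6, Hnrnph2, Hnrnpk, Mbnl1, Ptbp3, Rbm33, Snrnp70 and Srrm2. After centring on a common median 5 were higher and 4 lower (Ago2, Ddx46, Ddx6 and Mbnl1). The share of higher calls among called member sums then went from 28.6% to 55.6%, and among all called gene sums from 43.3% to 63.0%.

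The 9 tested transcripts with a mean of 20 FPKM or more changed by 0.12 to 0.40, and the 10 below it by 0.72 to 1.26 regardless of sign, a gap that depends on the pseudocount. With a pseudocount of 5 in place of 1 the change of Mbnl3 NM_001310515 was 0.30, that of Mbnl1 XM_030252701 -0.37 and that of Ythdc1 0.38, beside -0.37 for the more abundant Ptbp3. With a pseudocount of 0.1 they were 2.56, -3.52 and 1.87, beside -0.41 for Ptbp3. Genomic span was set beside direction. The 6 member genes with a higher transcript had a median span of 32.8 kb (5.61 to 92.5 kb), and the 11 with a lower one a median of 37.7 kb (5.88 to 157 kb). Across all tested transcripts the medians were 18.6 kb for 158 genes with a higher and 68.0 kb for 199 genes with a lower transcript. Raly and Mbnl3 rose with spans of 80.1 and 92.5 kb, while Hnrnph2, at 5.88 kb, had the shortest span of all genes with a lower transcript. The part of gene span in these results was not tested.

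**Figure D5:**
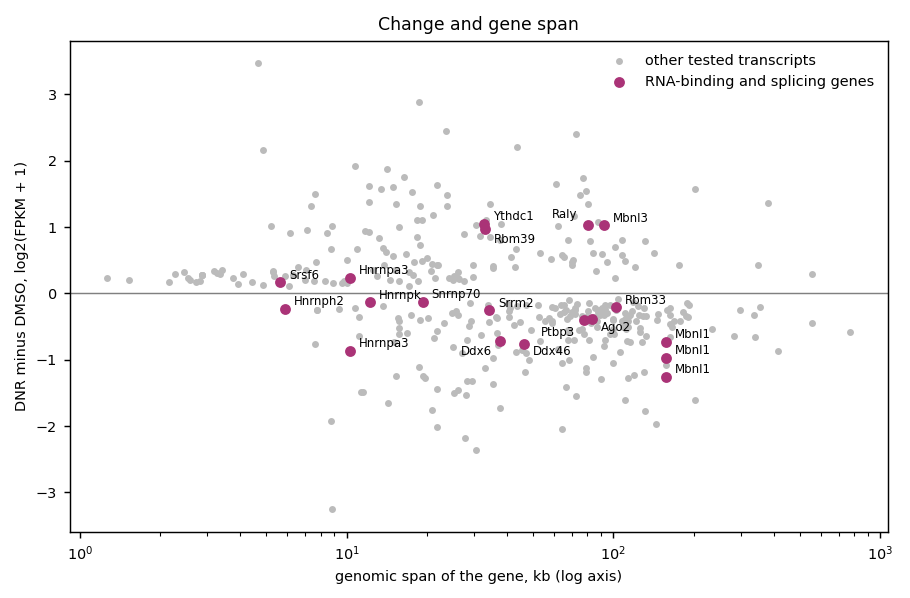
Change from DMSO to DNR on the log2(FPKM + 1) scale against the genomic span of the gene in kb on a log axis, with 1 point for each tested transcript that has a matched gene. Grey points are other transcripts and coloured points the 19 member transcripts; Raly and Mbnl3 lie high at long spans, Mbnl1 lies low at 157 kb, and Hnrnph2 is the leftmost point below 0.

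Other genes of RNA processing, taken from 5 lists of 214 genes by textbook function and not by stem, gave 15 listed transcripts of 13 genes, of which 8 were tested, 4 higher and 4 lower. Their median change was -0.20, beside -0.22 for all tested transcripts. Of the splicing kinases and speckle proteins, Rsrp1 rose from 110.2 ± 4.37 to 129.4 ± 4.92 FPKM (SD, n = 3; change 0.23 ± 0.04, SE; limma, adjusted p = 0.0031) and Pnisr from 16.9 ± 1.70 to 22.9 ± 1.59 FPKM (SD, n = 3). Both encode proteins rich in arginine and serine. Scaf11, an SR-related factor, fell from 11.2 ± 1.66 to 7.32 ± 0.87 FPKM (SD, n = 3; limma, adjusted p = 0.0062), which was lost after centring on a common median (limma, adjusted p = 0.056). Pcbp2 XM_030248393, of a poly(C)-binding protein, was at 1.75, 1.49 and 1.25 FPKM in DMSO but 0 in every DNR sample. Tob2, which recruits the deadenylase, rose from 74.5 ± 1.79 to 83.0 ± 1.87 FPKM (SD, n = 3; limma, adjusted p = 0.0048).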

How the data were processed

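The authors deposited 1 table of log2(FPKM + 1) for 1037 transcripts in 6 samples; the scale was read from the values, since 2 to the power of each value minus 1 gave 2 decimals in 100% of cells (tolerance 1e-06 FPKM). Builds were GRCm38 and mm10, per the submitters' processing notes. For the aligner, the quantification program and the rule of entry to the table: not given in the sources used here. Columns were matched to samples by name: codes with O end like the DMSO descriptions, which fills the DMSO samples; the codes with D, a letter that opens both names, were therefore taken as DNR. Every direction rests on that. Accessions were matched without version to RefSeq symbols of GRCm38.p6 (1013 of 1037), whose gene coordinates are 1-based.

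Transcripts, and sums of FPKM per gene, with at least 1 FPKM in 3 samples were compared with limma 3.58.1 in R 4.3.3 (trend, treatment only, two-sided), with Benjamini-Hochberg adjustment over the whole table. The design had assumed linear FPKM, to be put on this same log scale. The fit was tested on simulated data. The members and lists were chosen with earlier results of these data known. Every member is named, apart from a few results of these lists that are not reported here; by rule, change, SE and adjusted p are given for up to 4 transcripts a role with the smallest adjusted p, and for those that changed by at least 0.5, and outside it for Hnrnpk and Ptbp3, chosen after their values were seen; up to 3 transcripts are named per other list. Alternatives varied scaling, pseudocount, filter, trend, samples, replicate block and predicted models.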

Additional observations from a re-analysis of the deposited data

How the results depend on the processing

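The 19 called member transcripts remained called, each in its direction, with a pseudocount of 0.1 or 5 and with no filter. The same held without the mean-variance trend and with any 1 sample left out. The stricter filter and curated accessions alone kept the call of the 15 and 12 that they still tested. How many of all tested transcripts stayed called in these settings was not counted, so such stability is not shown to be particular to the members. The filter used all 6 samples even where 1 was left out, so entry to the test was not tried again. Its limit thus also holds here for Mbnl3 NM_001310515, Ythdc1 and Mbnl1 XM_030252701. With curated accessions alone 12 transcripts were called, 6 of them lower, and 5 gene sums were lower, since fewer were tested. After centring on a common median 7 transcripts were lower, 9 gene sums were called and 4 of these were lower. In that setting Snrnp70 turned to 0.0661 and Hnrnpk to 0.0562 as transcripts and to 0.043 and 0.0331 as gene sums, and the Hnrnpa3 sum turned to 0.154; the cause was not tested. With quantile normalization 17 transcripts were called, without Srsf6 and Srrm2. With the replicate number as a replicate block 19 transcripts and 14 gene sums were called, as without it. Same-numbered samples did not deviate together (correlations -0.05, 0.05 and 0.04), so the numbers were not taken as pairs. FPKM keep no read totals, and what depth limits could not be stated.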

Other observations

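Curated and predicted accessions differed in direction. All 7 tested members with a predicted accession were lower in DNR, while the 12 with a curated one split into 6 higher and 6 lower. Of the 7, 3 were transcripts of Mbnl1, and of the 12, 2 were transcripts of Hnrnpa3. Transcripts of a gene share reads, so these are not separate cases. In the whole table, 67.1% of the 167 tested predicted transcripts and 48.9% of the 221 curated ones were lower. This split was noticed in the data, and no test was made of it.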
